A study of Mus musculus with 6 samples.

Results

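The genes described here belong to cholesterol and fatty acid synthesis, which the SREBP transcription factors are known to drive, or regulate SREBP itself. They were chosen by symbol: 38 listed genes were looked up in the deposited count table, and all 38 were found among its 24786 rows. They comprise 7 early sterol enzymes, 11 late sterol enzymes, the sterol carrier Stard4, 5 regulators of SREBP and 14 fatty acid and glycerolipid genes. Of the 38, 37 had enough counts to be tested. Acacb did not.

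RNA was sequenced from wild-type mouse intestinal organoids, which are epithelial structures grown in culture from gut stem cells. Organoids were dissociated to single cells with the enzyme TripLE for 10 min. They then spent 16 h in 100 µM tyramine, an amine that gut bacteria make from tyrosine (3 libraries), or in the control condition (3 libraries). The control libraries are titled DMSO, a solvent, while the series' design names control medium, and the sources used here do not say whether the tyramine cultures held DMSO. Both groups are wild type and differ in the labels only by treatment. Strain, age and gut region are not named in those sources. Nothing says that the replicates were separate cultures or mice, and p-values therefore reflect library-to-library spread, possibly technical.

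Cells make cholesterol from acetyl-CoA through mevalonate and farnesyl pyrophosphate to squalene, which is closed into lanosterol and trimmed to cholesterol. SREBP precursors sit in the endoplasmic reticulum bound to Scap. When sterols are plentiful, Insig proteins hold that complex there. When sterols are short, Scap carries SREBP to the Golgi, where proteases free the part that enters the nucleus. That part switches on synthesis genes, with SREBP2 leaning to sterol and SREBP1 to fatty acid synthesis. In the small intestine this pathway is active in the epithelium, which also takes up dietary cholesterol and fat.

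Upstream sequence from RefSeq (build GRCm38.p6) was matched by symbol for 31 of the 38 members. The other 7, Fdps, Fdft1, Sqle, Stard4, Scd1, Scd2 and Fads1, had no window and were not searched. All of these but Fads1 fell with tyramine. SREBP is known to bind short sterol response elements beside sites for NF-Y, which binds CCAAT. The 250 bases before each start annotated in RefSeq were therefore searched on both strands. These starts can differ from the gene starts in the GENCODE annotation, so some windows hold bases within genes. The Insig1 window ends at 28071411, past the GENCODE start at 28071363, and the windows of Acaca and Acacb lie inside those genes. The search used TCACNCCAC as the sterol response element, CCAAT for NF-Y and GGGCGG, the GC box. No copy of the first motif overlapped a CCAAT in the windows shown. Windows of 3 genes that fell and 1 that rose are shown, to let the sequences be read beside the values: the entry enzyme Hmgcs1, Mvk with the most CCAAT copies, the regulator Insig1, and Acly. Capitals mark TCACNCCAC and CCAAT on either strand.
Hmgcs1 promoter, chr13:119690101-119690350, plus strand: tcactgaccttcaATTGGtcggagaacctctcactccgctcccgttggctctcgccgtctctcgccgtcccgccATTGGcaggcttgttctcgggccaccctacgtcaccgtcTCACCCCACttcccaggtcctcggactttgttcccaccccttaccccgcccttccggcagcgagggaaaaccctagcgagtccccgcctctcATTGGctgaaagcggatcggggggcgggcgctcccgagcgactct
Mvk promoter, chr5:114444019-114444268, plus strand: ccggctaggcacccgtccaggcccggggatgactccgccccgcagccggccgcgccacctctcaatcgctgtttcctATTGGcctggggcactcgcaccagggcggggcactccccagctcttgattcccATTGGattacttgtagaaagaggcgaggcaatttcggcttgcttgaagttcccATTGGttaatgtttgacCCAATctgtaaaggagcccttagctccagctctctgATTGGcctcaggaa
Insig1 promoter, chr5:28071162-28071411, plus strand: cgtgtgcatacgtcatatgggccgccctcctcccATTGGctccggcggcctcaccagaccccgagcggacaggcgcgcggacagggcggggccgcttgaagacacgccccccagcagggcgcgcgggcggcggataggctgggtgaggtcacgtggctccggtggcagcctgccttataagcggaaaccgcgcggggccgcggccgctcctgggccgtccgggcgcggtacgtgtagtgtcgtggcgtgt
Acly promoter, chr11:100528001-100528250, minus strand: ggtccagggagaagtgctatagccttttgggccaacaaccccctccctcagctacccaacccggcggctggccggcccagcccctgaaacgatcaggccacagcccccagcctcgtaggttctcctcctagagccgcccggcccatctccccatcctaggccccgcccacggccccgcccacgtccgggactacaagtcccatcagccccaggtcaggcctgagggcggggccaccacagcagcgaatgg
Hmgcs1 held the sterol response element from 137 to 129 bases before its RefSeq start, with CCAAT copies on the opposite strand on both sides of it. That start directly follows the window, and the GENCODE start of Hmgcs1, chr13:119690379, lies further downstream. It was the only 1 of the 31 members with that motif (3.23%), against 119 of 9503 tested genes with a window (1.25%). A longer form of the element, with no free base, was in 0 of the 31. At least 1 CCAAT was present in 25 of the 31 members (80.6%), against 3897 of the 9503 tested genes (41%). Among members that fell, 16 of 19 held it (84.2%), and among the other members 9 of 12 did (75%). GGGCGG was in 25 of the 31 members (80.6%) and in 6034 of the tested genes (63.5%). Some genes have more than 1 window, and a gene was counted if any window held the motif. These matches describe letters in the windows and are not binding sites.

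Genes of the pathway fell broadly with tyramine. Of the 37 tested members, 25 fell, 1 rose and 11 did not pass. The threshold was an adjusted p under 0.05 (Benjamini-Hochberg over 12139 genes) in the quasi-likelihood test of edgeR. Across all tested genes 13.3% fell and 12.5% rose. The median log2 fold change, tyramine minus DMSO, was -1.16 over the tested members and 0.00 over all tested genes. Falls of at least 2-fold were called in 22 members, against 9.1% of all tested genes. In 28 members every tyramine library lay below every DMSO library, which held for 23.6% of all tested genes, and in 2 members, Scap and Acly, every tyramine library lay above, which held for 20.9%. Leaving out 1 library at a time gave 21 to 26 members that fell and 0 or 1 that rose. In the text below, values are CPM, counts scaled to one library size with edgeR's TMM factors, listed for replicates 1, 2 and 3 of a group in that order.

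**Figure D1:**
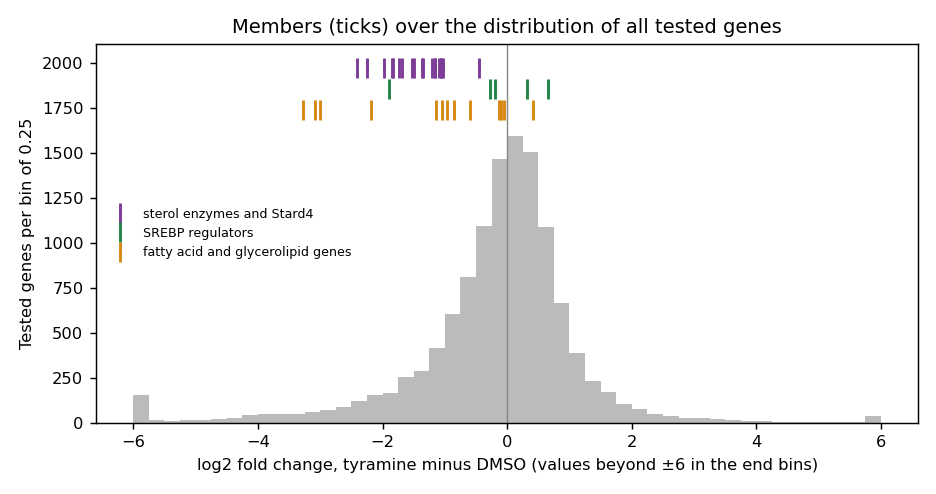
Histogram of the log2 fold change, tyramine minus DMSO, of all 12139 tested genes, with the 37 tested members as ticks above it. The sterol ticks all lie left of 0, from -2.41 to -0.45, while the regulators and the fatty acid genes lie on both sides.

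Libraries held 29176428 to 32489563 counts with tyramine and 28316372 to 35035955 with DMSO. The tyramine libraries scattered more: the median coefficient of variation over tested members was 27% with tyramine and 12.1% with DMSO, and over all tested genes 28.4% and 15.9%. Among the 3 tyramine libraries, replicate 3 was the lowest for 24 of the 37 tested members (64.9%), against 36.2% of all tested genes. Epithelial markers were abundant in both groups (summed 14374 to 15882 CPM with tyramine and 15888 to 17347 CPM with DMSO), and of 8 such markers Epcam, Krt19, Cdx2 and Vil1 fell and Cdh1 and Krt18 rose. Enterocyte markers fell in 14 of 14 cases, among them Slc2a2 and Alpi, summing to 4103 to 4246 CPM with tyramine and 21096 to 22356 CPM with DMSO. Proliferation markers, among them Mki67, fell in 13 of 14 cases, summing to 196 to 236 CPM with tyramine and 2800 to 3379 CPM with DMSO, with Ccnb1 and Birc5 at 0 counts in 1 tyramine library. The part of these shifts in the falls below was not tested, and in bulk samples fewer cells of a type and less RNA per cell cannot be told apart. Markers of other tissues were low. Markers of adipocytes, which also make fatty acids, summed to at most 0.25 CPM with tyramine and 0.11 CPM with DMSO, with Plin1 at 0 counts in every library. Fibroblast markers summed to 8.01 to 8.27 CPM with tyramine and 8.20 to 9.12 CPM with DMSO, immune markers to 5.25 to 9.33 and 4.60 to 8.04 CPM, endothelial markers to 0.21 to 0.69 and 0.32 to 0.33 CPM, smooth muscle markers to 13.3 to 20.9 and 10.0 to 10.9 CPM, and liver markers to 0.28 to 1.80 and 9.51 to 15.3 CPM. No fibroblast, immune or smooth muscle marker passed the threshold, and the 1 liver marker with enough counts fell.

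All 7 early sterol enzymes fell, with log2 fold changes from -2.25 to -1.16 and a median of -1.53. They also fell with each library left out in turn. Their summed level was 500.1, 537 and 409 CPM in the tyramine libraries, against 1441, 1437 and 1266 CPM in the DMSO libraries. Acat2, the cytosolic thiolase that joins 2 acetyl-CoA units, had 14.8, 27.7 and 15.1 CPM with tyramine, against 70.1, 69.7 and 65.4 CPM with DMSO. It dropped 3.56-fold with tyramine, a log2 fold change of -1.83 with an SE of 0.260 (edgeR adjusted p = 0.00072). The groups did not overlap, and tyramine replicate 2 stood above the other tyramine libraries.

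Hmgcs1 (chr13:119690379-119708260, plus strand, GENCODE annotation of GRCm38) makes HMG-CoA, the substrate of the step that commits carbon to sterols. It had 238, 252 and 238 CPM with tyramine, against 718, 702 and 629 CPM with DMSO. The tyramine libraries were close together and far below every DMSO library, a 2.81-fold fall with the smallest SE among the early enzymes (log2 fold change -1.49, SE 0.092; edgeR adjusted p = 4.1e-06). Mvd (chr8:122433601-122443422, minus strand), which decarboxylates mevalonate diphosphate, had 15.3, 17.2 and 14.4 CPM with tyramine, against 70.4, 91.3 and 62.5 CPM with DMSO. Its fall of 4.77-fold was the deepest of the early steps in these libraries (log2 fold change -2.25, SE 0.205; edgeR adjusted p = 4.4e-05).

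The kinases Mvk and Pmvk add phosphate to mevalonate, in turn. Mvk had 22.9, 21.6 and 12.9 CPM with tyramine, against 57.4, 55.4 and 36.0 CPM with DMSO, and replicate 3 was the lowest library in each group. Pmvk had 76.5, 91.7 and 49.9 CPM with tyramine, against 166, 168 and 152 CPM with DMSO. They fell 2.59-fold and 2.23-fold (edgeR adjusted p = 0.0056 and 0.0022). Idi1, the isomerase that makes the reactive isoprene unit, had 75.5, 91.3 and 52.1 CPM with tyramine, against 214, 215 and 202 CPM with DMSO. Fdps, which builds farnesyl pyrophosphate, had 57.3, 35.7 and 26.3 CPM with tyramine, against 144, 135 and 119.7 CPM with DMSO. Idi1 was 2.88-fold and Fdps 3.35-fold lower (edgeR adjusted p = 0.00027 and 0.00081), with no overlap between groups. Exons of Fdps overlap those of Gm43738 on the same strand, so its counts are uncertain.

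**Figure D2:**
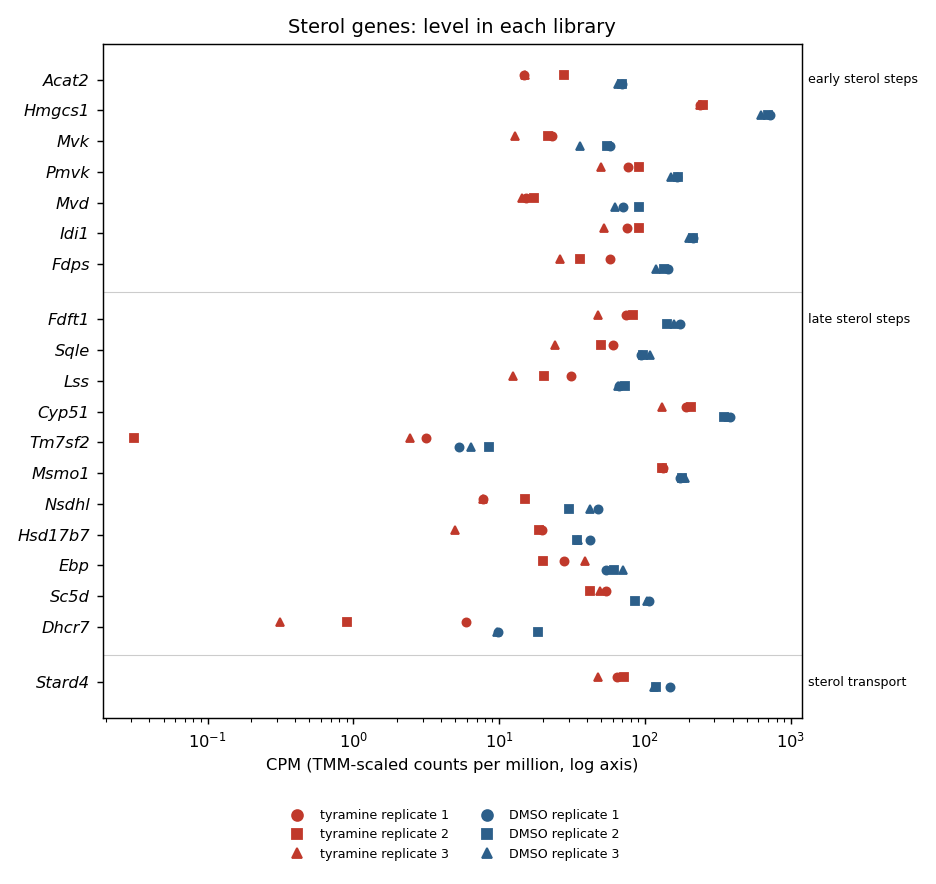
CPM on a log axis for each sterol gene in each library, tyramine libraries in red just above DMSO libraries in blue, with a marker shape for each replicate number. For all 19 genes each red point lies left of each blue point, and the red points spread most for Tm7sf2 and Dhcr7.

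Of 11 late sterol enzymes, which turn farnesyl pyrophosphate into cholesterol, 9 fell and Tm7sf2 and Dhcr7 were not past the threshold. The median log2 fold change was -1.21, with a range from -2.41 to -0.45, so the ranges of the early and late steps overlapped. All 18 sterol enzymes had their tyramine libraries below their DMSO libraries. The summed level of the late steps was 609, 589 and 452 CPM with tyramine, against 1157, 1079 and 1162 CPM with DMSO, 2.06-fold lower on average with tyramine, and that of the early steps was 2.86-fold lower. The difference between early and late steps was not tested, since the members were chosen with results known. With a library left out, 6 to 9 late enzymes fell.

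Fdft1, squalene synthase, had 74.6, 83.4 and 47.9 CPM with tyramine, against 175, 143 and 159 CPM with DMSO, a 2.32-fold fall (edgeR adjusted p = 0.0016). Sqle, the oxygen-using epoxidase that limits the late pathway, had 60.1, 50.3 and 24.3 CPM with tyramine, against 94.5, 96.7 and 109 CPM with DMSO. Its fall of 2.23-fold (edgeR adjusted p = 0.013) lost its call without DMSO replicate 3 (adjusted p = 0.0639). Lss, which closes the sterol rings, had 31.2, 20.3 and 12.5 CPM with tyramine, against 66.5, 73.3 and 65.3 CPM with DMSO, a 3.21-fold fall (edgeR adjusted p = 0.0025).

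Cyp51 starts the removal of the methyl groups of lanosterol. It had 191, 206 and 131 CPM with tyramine, against 381, 348 and 372 CPM with DMSO, 2.08-fold lower (log2 fold change -1.06, SE 0.156; edgeR adjusted p = 0.00088). Msmo1 and Nsdhl act on the next methyl groups, side by side in the pathway, yet their values differed in scale. Msmo1 had 133, 132 and 133 CPM with tyramine, against 175, 179.7 and 189 CPM with DMSO, the smallest change among the sterol enzymes (1.37-fold lower; log2 fold change -0.45, SE 0.101; edgeR adjusted p = 0.0092). Nsdhl had 7.73, 15.1 and 7.73 CPM with tyramine, against 47.9, 30.0 and 42.2 CPM with DMSO, 3.92-fold lower (log2 fold change -1.97, SE 0.333; edgeR adjusted p = 0.0020). Msmo1 took 15.9 ± 2.47% of the CPM per kilobase of exon summed over the 18 sterol enzymes in tyramine libraries, and 8.78 ± 0.672% in DMSO libraries (SD, n = 3 each).

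Hsd17b7, the ketoreductase that follows, had 19.6, 18.9 and 5.01 CPM with tyramine, against 41.9, 34.2 and 34.8 CPM with DMSO, and tyramine replicate 3 stood far below the others. Its call (edgeR adjusted p = 0.045) was lost without any 1 library other than tyramine replicate 3 (adjusted p = 0.0521 to 0.151). Ebp, a sterol isomerase, had 27.9, 20.1 and 39.0 CPM with tyramine, against 54.3, 61.0 and 70.5 CPM with DMSO (2.14-fold lower; edgeR adjusted p = 0.0094, and 0.0546 without DMSO replicate 3). Sc5d, a desaturase, had 54.3, 41.8 and 48.8 CPM with tyramine, against 106, 86.1 and 104 CPM with DMSO (2.04-fold lower; edgeR adjusted p = 0.0012).

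The 2 late enzymes without a call were also the least expressed per kilobase of the sterol enzymes. Dhcr7, which makes the last reduction to cholesterol, had 5.93, 0.912 and 0.313 CPM with tyramine, against 9.81, 18.5 and 9.72 CPM with DMSO. Its groups did not overlap, but the tyramine libraries differed among themselves more than most, and the log2 fold change of -2.41 had an SE of 0.906 (edgeR adjusted p = 0.079). Without tyramine replicate 1 it was -4.35 (adjusted p = 0.0039). DESeq2, limma-voom and an edgeR fit with replicate number as a block also called it (adjusted p = 0.0131, 0.0169 and 0.0415). The remaining alternatives did not, with an adjusted p of up to 0.255. Tm7sf2, a sterol reductase, had 89, 1 and 70 counts with tyramine, against 161, 309 and 183 counts with DMSO, with replicate 2 far below the other tyramine libraries (log2 fold change -1.85, SE 1.07; edgeR adjusted p = 0.25). With a library left out its log2 fold change was -2.45 (without tyramine replicate 1) to -1.27 (without tyramine replicate 2), with no call. Exons of Tm7sf2 overlap those of Vps51 on the same strand, and its counts are uncertain.

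Stard4 carries cholesterol between membranes and is itself a known SREBP target. It had 63.9, 71.4 and 47.6 CPM with tyramine, against 149, 118 and 115 CPM with DMSO. The groups were apart, and the level was 2.09-fold lower (log2 fold change -1.06, SE 0.178; edgeR adjusted p = 0.0019).

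Of the 5 regulators, Insig1 fell and 4 were not past the threshold. Insig1 and Insig2 encode the anchors that hold Scap in the endoplasmic reticulum, and Insig1 is known as a target of SREBP while Insig2 is not. Insig1 (chr5:28071363-28078662, plus strand) had 51.3, 38.6 and 33.5 CPM with tyramine, against 141, 168 and 149.5 CPM with DMSO. Every tyramine library lay below every DMSO library, and Insig1 was 3.72-fold lower (log2 fold change -1.90, SE 0.175; edgeR adjusted p = 4.9e-05), with -2.08 to -1.77 when 1 library was left out. Insig2 had 17.7, 13.0 and 10.5 CPM with tyramine, against 7.44, 10.5 and 14.9 CPM with DMSO. Its groups overlapped (log2 fold change 0.32, SE 0.377; edgeR adjusted p = 0.59).

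The SREBP genes themselves overlapped between groups. Srebf2, which encodes SREBP2, had 54.2, 62.2 and 70.6 CPM with tyramine, against 89.5, 66.8 and 70.8 CPM with DMSO (log2 fold change -0.28, SE 0.170; edgeR adjusted p = 0.27). Srebf1, which encodes SREBP1, had 29.1, 16.6 and 41.6 CPM with tyramine, against 34.2, 37.6 and 28.4 CPM with DMSO, its tyramine libraries spanning the DMSO range (log2 fold change -0.20, SE 0.312; edgeR adjusted p = 0.71). Counts per gene do not tell the forms of Srebf1 apart, nor how much SREBP is cleaved. Scap, the escort of SREBP, had 16.6, 15.9 and 17.5 CPM with tyramine, against 11.1, 10.4 and 10.2 CPM with DMSO. All 3 tyramine libraries were above all 3 DMSO libraries, 1.58-fold on average, without passing the threshold (log2 fold change 0.66, SE 0.285; edgeR adjusted p = 0.12, and 0.106 to 0.281 over the 15 alternatives).

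**Figure D3:**
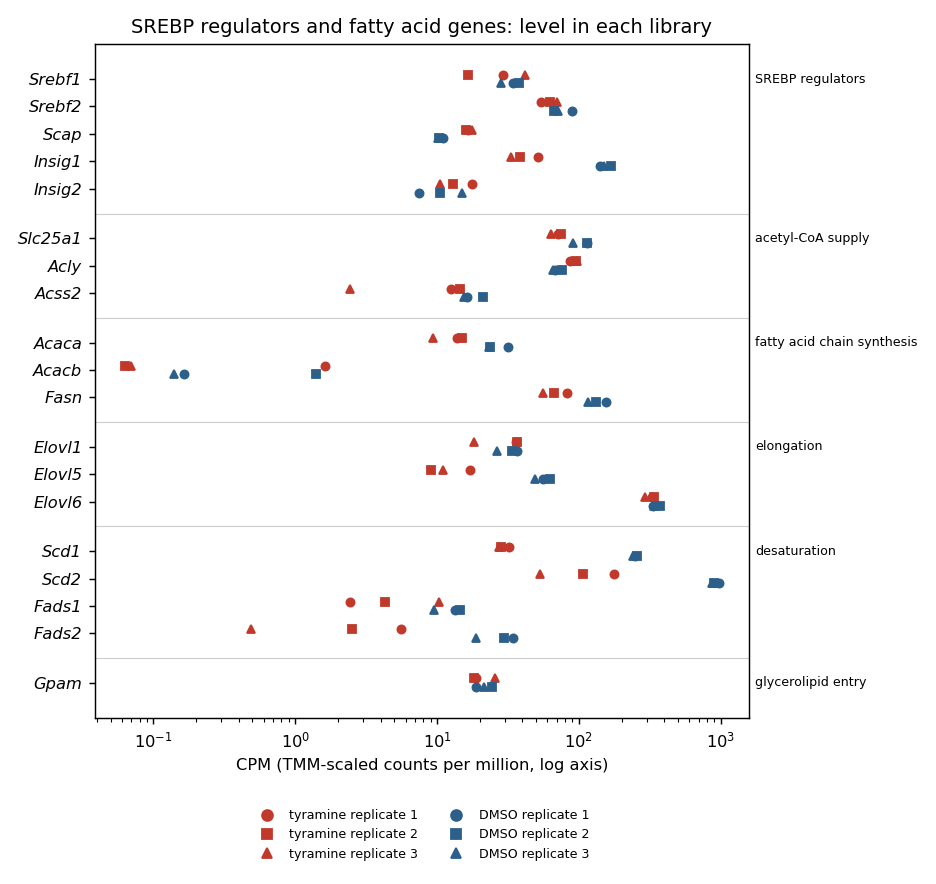
CPM on a log axis for the SREBP regulators and fatty acid genes in each library, tyramine libraries in red just above DMSO libraries in blue, with a marker shape for each replicate number. Insig1, Scd1 and Scd2 show red and blue points far apart, while Srebf1, Srebf2, Elovl6 and Gpam show them mixed or adjoining.

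The 14 fatty acid and glycerolipid genes were more mixed than the sterol enzymes. Of 13 tested, 7 fell, Acly rose and 5 did not pass, giving a median log2 fold change of -0.97 and a range from -3.27 to 0.41. The corresponding counts for the 18 sterol enzymes were 16, 0 and 2, with a median of -1.43. Whether these proportions differ was not tested.

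Citrate leaves mitochondria through Slc25a1 and is split to cytosolic acetyl-CoA by Acly, while Acss2 makes acetyl-CoA from acetate. Slc25a1 had 71.8, 74.6 and 63.2 CPM with tyramine, against 114, 114 and 91.3 CPM with DMSO, and fell 1.52-fold (edgeR adjusted p = 0.012, and 0.0633 and 0.0675 without DMSO replicate 1 or 2). Acly had 86.5, 94.8 and 97.5 CPM with tyramine, against 67.9, 75.9 and 65.9 CPM with DMSO, higher in every tyramine library. Its 1.33-fold rise was just past the threshold (log2 fold change 0.41, SE 0.133; edgeR adjusted p = 0.047) and the call was lost under 9 of 15 alternatives, among them another scaling (adjusted p = 0.0502 with RLE factors and 0.114 with library totals alone). Acss2 had 12.5, 14.4 and 2.44 CPM with tyramine, against 16.4, 21.2 and 15.6 CPM with DMSO, not past the threshold (log2 fold change -0.86, SE 0.547; edgeR adjusted p = 0.30).

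Acaca and Fasn, the carboxylase that makes malonyl-CoA and the synthase that builds palmitate, both fell. Acaca had 13.8, 15.0 and 9.33 CPM with tyramine, against 31.7, 23.6 and 23.1 CPM with DMSO (2.06-fold lower; edgeR adjusted p = 0.024, and 0.0638 to 0.128 without any 1 DMSO library). Fasn had 82.2, 67.3 and 55.5 CPM with tyramine, against 154, 131 and 116 CPM with DMSO (1.96-fold lower; edgeR adjusted p = 0.0027). Acacb, the carboxylase form at the mitochondrial surface, had 46, 2 and 2 counts with tyramine and 5, 51 and 4 with DMSO, with most of the counts of each group in 1 library. It was too low to test.

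Of the 4 fatty acid desaturation genes 3 fell and Fads1 did not pass. With all 6 libraries, Fads2, Scd1 and Scd2 had the lowest log2 fold changes of the tested members. Scd1 (chr19:44394455-44407879, minus strand) and Scd2 (chr19:44293674-44306864, plus strand) place the first double bond in stearate and palmitate. Scd1 had 32.4, 28.2 and 27.4 CPM with tyramine, against 249.8, 258 and 239 CPM with DMSO, tight in each group and 8.49-fold lower with tyramine (log2 fold change -3.09, SE 0.124; edgeR adjusted p = 2.6e-07). Scd2 had 178, 107 and 53.2 CPM with tyramine, against 969, 889 and 868 CPM with DMSO, 8.06-fold lower and more scattered with tyramine (log2 fold change -3.01, SE 0.363; edgeR adjusted p = 0.00043). Scd1 and Scd2 are close relatives, and the sources used here do not say how reads were split between them.

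Fads1 and Fads2 desaturate polyunsaturated chains, and their genes are neighbours on chromosome 19. Fads2 had 5.61, 2.52 and 0.487 CPM with tyramine, against 34.4, 29.9 and 18.8 CPM with DMSO, 9.64-fold lower (log2 fold change -3.27, SE 0.695; edgeR adjusted p = 0.0069), and -4.19 without tyramine replicate 1. Fads1 had 2.44, 4.31 and 10.3 CPM with tyramine, against 13.4, 14.6 and 9.58 CPM with DMSO, and did not pass the threshold (log2 fold change -1.14, SE 0.539; edgeR adjusted p = 0.16). Tyramine replicate 3, the lowest tyramine library for Fads2, was the highest for Fads1 and lay within the DMSO range. Without that library Fads1 was called (log2 fold change -1.89; adjusted p = 0.0108).

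Elongases differed among themselves. Elovl5, which lengthens polyunsaturated chains, had 16.9, 9.06 and 10.9 CPM with tyramine, against 56.2, 62.7 and 49.2 CPM with DMSO, 4.55-fold lower (log2 fold change -2.19, SE 0.268; edgeR adjusted p = 0.00030). Elovl6, which takes palmitate to stearate and is known as an SREBP1 target, had 327, 338 and 294 CPM with tyramine, against 334, 372 and 339.7 CPM with DMSO. Its groups overlapped and its SE was small (log2 fold change -0.12, SE 0.097; edgeR adjusted p = 0.40). Elovl1, an elongase of saturated very long chains, had 35.8, 36.5 and 18.2 CPM with tyramine, against 36.9, 33.6 and 26.6 CPM with DMSO (log2 fold change -0.10, SE 0.287; edgeR adjusted p = 0.85). Exons of Elovl1 overlap those of the mitotic gene Cdc20 on the other strand, so its counts are uncertain. The same holds for Fdft1, Cyp51, Srebf1 and Acss2, whose exons also overlap those of protein-coding genes on the other strand. Gpam, the acyltransferase that starts glycerolipid synthesis, had 18.9, 18.1 and 25.7 CPM with tyramine, against 18.7, 24.5 and 21.6 CPM with DMSO (log2 fold change -0.05, SE 0.257; edgeR adjusted p = 0.92).

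**Figure D4:**
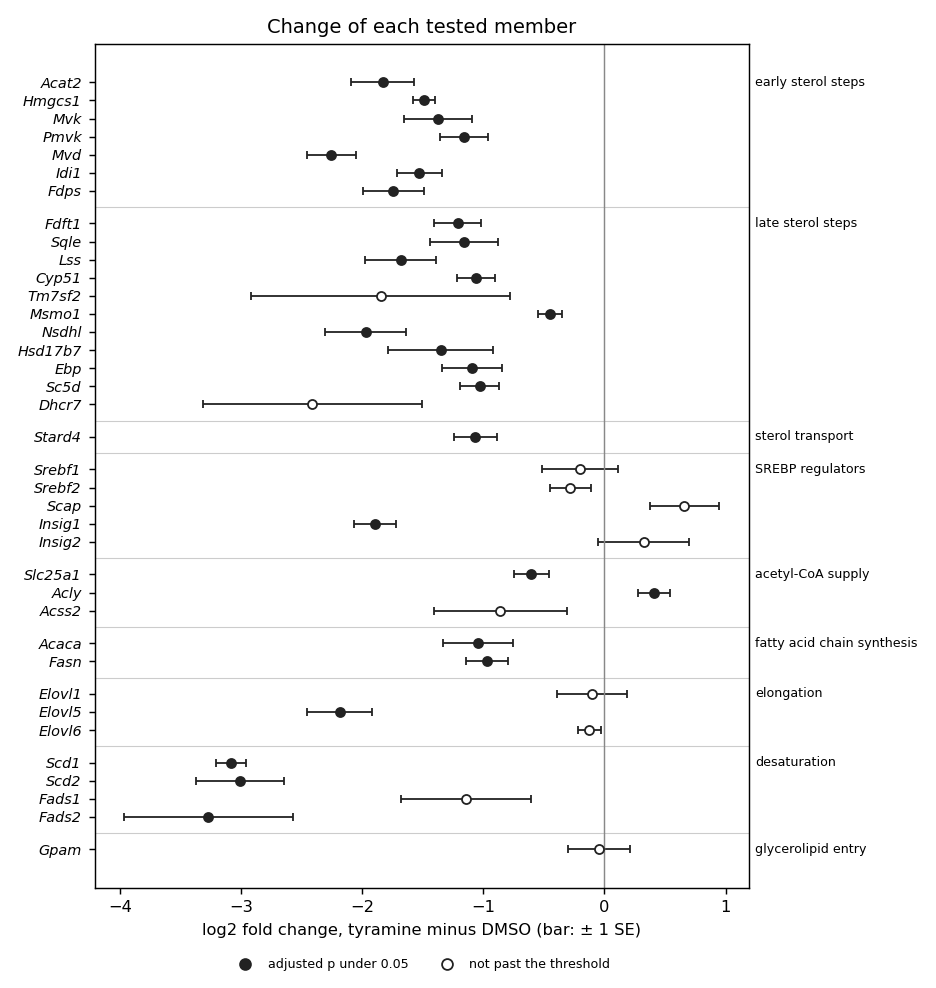
Log2 fold change, tyramine minus DMSO, of the 37 tested members in pathway order, with bars of 1 SE and filled points where the edgeR adjusted p was under 0.05. Filled points lie left of 0 except for Acly, at 0.41, and the deepest are Fads2, Scd1 and Scd2 at -3.27, -3.09 and -3.01.

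Set on a scale of CPM per kilobase of exon, the order of the members changed. Hmgcs1 was the highest member in both groups, at 66.6 with tyramine and 187 with DMSO. Scd2 ranked 9 with tyramine, at 20.7, and 2 with DMSO, at 167, and Scd1 ranked 24 and 11. Msmo1 ranked 2 and 5, and Elovl6 ranked 3 and 10. Of the summed CPM per kilobase of the 14 fatty acid and glycerolipid genes, Scd1 and Scd2 together held 20.2, 14.0 and 10.4% in tyramine libraries, against 51.9, 49.7 and 53.4% in DMSO libraries. Elovl6 held 28.8 ± 2.46% in tyramine libraries and 12.9 ± 0.959% in DMSO libraries (SD, n = 3 each), while its own level overlapped between groups. Slc25a1 held 24.2 ± 1.83% and 15.1 ± 0.885% of the same sum in those groups.

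In all, 8 pairs of members with like roles were compared as a log2 ratio within each library, which does not depend on scaling. Of the 8 pairs, 3 did not overlap between groups, and each of those reached p = 0.1 in a two-sided exact permutation test, the smallest that 3 against 3 libraries allow (0.27 after Benjamini-Hochberg adjustment over 8 pairs). Among single tested genes, 23.6% had every tyramine library below every DMSO library and 20.9% had every one above. No such share was computed for ratios of other genes, so the count of pairs has no background to be read against. The ratio of Insig1 to Insig2 was 1.54, 1.57 and 1.67 in log2 with tyramine, against 4.24, 3.998 and 3.32 with DMSO, a mean difference of -2.26. The tyramine libraries lay close together, with an SD of 0.0732. The ratio of Elovl5 to Elovl6 averaged -4.75 ± 0.476 with tyramine and -2.64 ± 0.126 with DMSO (SD, n = 3 each). The ratio of Acly to Acss2 averaged 3.61 ± 1.48 with tyramine and 1.99 ± 0.132 with DMSO, with tyramine replicate 3 at 5.31. Its difference was 1.62, and 0.77 without that library.

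In the other pairs the groups overlapped. The log2 ratio of Srebf1 to Srebf2 averaged -1.19 ± 0.622 with tyramine and -1.18 ± 0.304 with DMSO, a difference of -0.01 (exact permutation p = 1.0). That of Scd1 to Scd2 averaged -1.78 ± 0.759 with tyramine and -1.87 ± 0.0868 with DMSO (exact permutation p = 0.9). That of Elovl1 to Elovl6 averaged -3.47 ± 0.467 with tyramine and -3.44 ± 0.248 with DMSO (exact permutation p = 0.8). The ratio of Fads1 to Fads2 was -1.20, 0.77 and 4.35 with tyramine, against -1.36, -1.03 and -0.97 with DMSO (exact permutation p = 0.3), so the tyramine libraries ranged widely. The difference was 2.43, against 0.91 without tyramine replicate 3 and 3.68 without tyramine replicate 1. For Acaca to Acacb the low counts of Acacb set the ratio (exact permutation p = 0.7). With 3 libraries a group, a p of this size does not show that a pair responds alike.

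**Figure D5:**
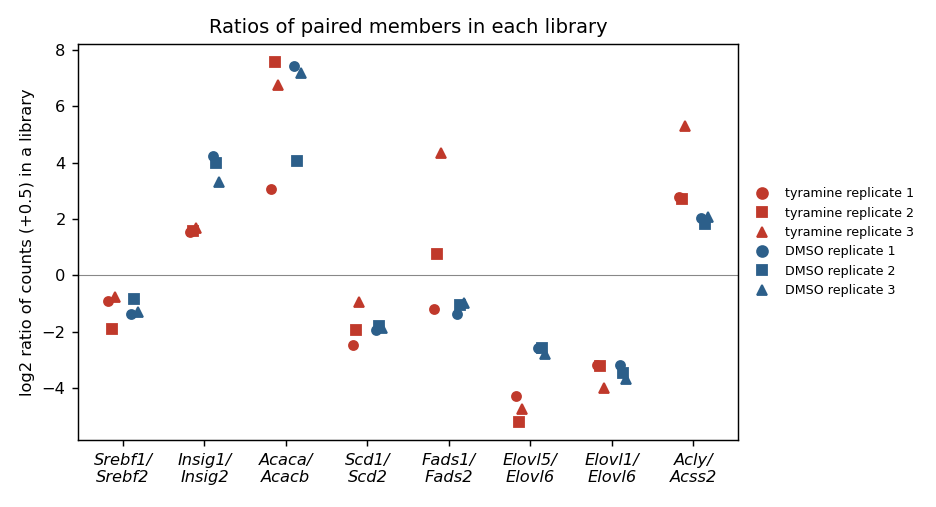
Log2 ratio of counts of paired members in each library, tyramine in red left of DMSO in blue, with a marker shape for each replicate number. Red and blue do not overlap for Insig1/Insig2, Elovl5/Elovl6 and Acly/Acss2, and the red points spread most for Fads1/Fads2 and Acaca/Acacb.

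Other genes of the pathway were taken from 4 lists. Across all tested genes 13.3% fell and 12.5% rose, and whether any of the 4 lists differed from those shares was not tested. Of 18 tested genes of further sterol synthesis and uptake, 9 fell, 1 rose and 8 did not pass (median log2 fold change -0.61). The mitochondrial thiolase Acat1 averaged 40.1 ± 6.44 CPM with tyramine and 107.9 ± 5.47 CPM with DMSO, and fell (log2 fold change -1.43), as did Cyb5r3, an electron donor for sterol desaturation (-0.86), while Por, the electron donor of Cyp51 and Sqle, rose (0.37), a call lost with library totals alone and without any 1 DMSO library. Of 13 genes that process or degrade the SREBP complex, Erlin1, Erlin2 and Sec23a fell, Pgrmc1 rose and 9 did not pass (median 0.09). Without DMSO replicate 3 only 1 of the 13 fell. Pgrmc1 averaged 527 ± 88.3 CPM with tyramine and 257 ± 22.4 CPM with DMSO. The proteases that cleave SREBP, Mbtps1 and Mbtps2, had log2 fold changes of -0.38 and -0.26 (edgeR adjusted p = 0.18 and 0.69).

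Among 10 tested genes of sterol efflux and esterification, many of them targets of the sterol sensor LXR, 4 fell, 1 rose and 5 did not pass (median -1.34). Abcg5 and Abcg8, which together pump sterols back into the gut lumen, averaged 26.1 ± 11.7 and 22.5 ± 4.02 CPM with tyramine, against 166 ± 9.42 and 112 ± 17.5 CPM with DMSO. Soat2, which esterifies cholesterol in enterocytes, fell (log2 fold change -1.44), as did Lpcat3 (-1.63), and Mylip rose (2.89) from a low level, a call lost with limma-voom, with a replicate block and without any 1 DMSO library or tyramine replicate 3. Of 26 tested genes of further fatty acid and glycerolipid synthesis, 12 fell, 3 rose and 11 did not pass (median -0.60). Acsl5, an acyl-CoA synthetase of enterocytes, averaged 490.3 ± 67.5 CPM with tyramine and 1390 ± 94.9 CPM with DMSO. Dgat1, which makes triglyceride, fell (log2 fold change -1.84). Lpin2, a phosphatidate phosphatase gene, rose and averaged 329.7 ± 49.1 CPM with tyramine and 76.1 ± 8.02 CPM with DMSO (log2 fold change 2.11), and Me1, which makes NADPH for lipid synthesis, also rose (1.02), as did Hacd3 (0.73).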

How the data were processed

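Libraries were made, per the labels' protocols, from 2 µg RNA each with a stranded kit that adds 8-base molecular identifiers, and read as 150-base paired ends. Per the submitters' processing notes, STAR 2.5.3a and genome build mm10 were used. The sources used here name no counting program, annotation or strand setting, and do not say whether identifiers were used. The authors deposited raw counts per gene symbol, 1 column per library. Values of 1 to 8 were even in 72.6% to 78.7% of cases per library, and may not each be 1 molecule.

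Genes were filtered with filterByExpr (minimum count 10, minimum total 15), scaled by TMM and tested with edgeR 4.0.16 (R 4.3.3; robust quasi-likelihood F-test, group as the only term, all 6 libraries, Benjamini-Hochberg adjustment over 12139 genes, threshold 0.05). SEs were derived from the F statistic and the log2 fold change. Pair ratios used counts plus 0.5. Lengths are unions of exons of protein-coding transcripts in GENCODE M21 (GRCm38, the build called mm10). Exons of 13 members overlap those of another annotated gene, 7 of them a protein-coding one: Fdps, Fdft1, Cyp51, Tm7sf2, Srebf1, Acss2 and Elovl1. The counts of these 7 are uncertain. Members and lists were chosen with earlier results of these data known. All members are named, with up to 4 called genes per other list by smallest p; a few that the rule picks are left out, and the remaining names were picked with values in view. The scripts were tested on simulated counts. Deviations of same-numbered libraries from their group means were nearly uncorrelated (-0.02 to 0.01). With 3 libraries a group, such values cannot show whether replicate numbers pair the libraries, and the labels do not say.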

Additional observations from a re-analysis of the deposited data

How the results depend on the processing

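Every count of members and every tested member was recomputed under 15 alternatives: RLE size factors, library totals alone, no low-count filter, a filter of 1 CPM, DESeq2 1.42.0, limma-voom 3.58.1, robust estimation off, halved counts, a replicate block and each library left out. Of the 25 members that fell, 20 fell under all of these, and Sqle, Hsd17b7, Ebp, Slc25a1 and Acaca lost their calls only when a library was left out. A longer sterol response element was in 0 members, against 1 for the shorter. Over the tested members, 524 of 555 recomputed values kept direction and call, and 21 lost and 5 gained a call. Another 5 changed sign, none of them called.

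The number that rose was 0 with RLE factors, library totals alone, no filter or the replicate block, and 0 to 1 with a library left out; the cause was not tested. The number that fell was 21 to 26 with a library left out. With the replicate block it was 26, and the block lowered the genes called across the table to 2594, against 3127. The highest correlation of deviations between a tyramine and a DMSO library was 0.02, for tyramine replicate 1 with DMSO replicate 2. That is too small to match libraries across the groups. Without tyramine replicate 1, 2 or 3, 3074, 2933 and 3307 genes were called, and without DMSO replicate 1, 2 or 3, 1995, 1977 and 2075; the cause was not tested. Library totals alone shifted the median of all genes by -0.09.

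With a library left out, the log2 fold change of Srebf1 was -0.55 to 0.084, of Elovl1 -0.26 to 0.16 and of Gpam -0.22 to 0.049. The difference in log2 ratio was -0.22 to 0.35 for Srebf1/Srebf2, -1.53 to 0.93 for Acaca/Acacb, -0.32 to 0.42 for Scd1/Scd2, -0.17 to 0.24 for Elovl1/Elovl6, 0.91 to 3.68 for Fads1/Fads2, 0.77 to 2.06 for Acly/Acss2, -2.53 to -2.07 for Insig1/Insig2 and -2.34 to -1.87 for Elovl5/Elovl6; the cause was not tested. Acacb had too few counts to be tested, and halving the counts changed the call of 0 tested members.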
